A study of Mus musculus with 12 samples.

Results

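AGO2-bound RNA was described for 10 genes that mark macrophages: Lyz2, Ctss, Cd68, C1qa, C1qb, C1qc, Mrc1, Cd163, Csf1r and Apoe. A member was any listed peak, at any fold or p, that overlapped 1 of these genes on the same strand by at least 1 nt. There were 54 such peaks of 92451 in the wild-type (WT) library of set 1, 35 of 119859 in the mir-486 knockout (mir-486 KO) library of set 1, 167 of 244814 in WT of set 2 and 113 of 256219 in mir-486 KO of set 2. Member peaks were selected on the peak calls of these libraries, and the genes were proposed with results of the same libraries known, so their counts and folds are given as descriptions, with no test, beside the same values over all listed peaks.

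The libraries are chimeric eCLIP of tibialis anterior muscle from male mice aged 6 months, in which AGO2 was cross-linked to RNA, immunoprecipitated and sequenced beside a size-matched input. WT mice carry an intact Mir486 and are labelled as strain C57BL/6. The mir-486 KO mice (genotype miR-486-/-) lack the hairpin of this microRNA through a CRISPR deletion within Ank1, and are labelled as FVB N/J. The methods instead place all mice on a C57BL/6J background after backcrossing, so genotype and labelled strain cannot be told apart here. Each of the 2 library sets has 1 WT and 1 mir-486 KO library. The methods describe the eCLIP as done in duplicate, and it is not stated whether the sets come from different mice. The sets may therefore not be independent animals. No test between genotypes was made, since an exact two-sided permutation of 2 libraries against 2 cannot go below p = 0.333.

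Macrophages live between the fibres of skeletal muscle, where they clear dead cells and direct repair after injury. They digest what they take up in lysosomes, secrete the complement proteins that tag debris, and carry scavenger and growth factor receptors at their surface. AGO2 holds microRNAs and, through base pairing of the seed, the RNAs that these repress. A whole muscle lysate holds AGO2 from all its cells, and in such a sample fewer macrophages and less RNA per macrophage cannot be told apart. For comparison, 8 myofibre genes such as Acta1 and Ttn took between 103 and 139 of every 10000 listed peaks in the 4 libraries.

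Macrophage genes took a smaller share of the listed peaks in mir-486 KO than in WT in both sets. The share was 5.84 per 10000 listed peaks in WT and 2.92 in mir-486 KO of set 1, and 6.82 in WT and 4.41 in mir-486 KO of set 2. The log2 ratio of KO to WT was -1.00 in set 1 and -0.63 in set 2. It averaged -0.81, with a spread between the sets of 0.26 (SD, n = 2 sets). Leaving out any single gene kept the ratio between -1.22 and -0.76 in set 1 and between -0.66 and -0.59 in set 2.

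The number of genes with a listed peak was 9 in WT and 7 in mir-486 KO of set 1, and 10 in both libraries of set 2. Mrc1, the longest of the genes, held most peaks in WT of set 1, with 20, and in set 2, with 54 in WT and 36 in mir-486 KO. In mir-486 KO of set 1 it had 9, fewer than Apoe. Cd163 had 5 and 0 peaks in set 1 and 26 and 18 in set 2. Csf1r had 4 peaks in each library of set 1, then 33 in WT and 24 in mir-486 KO of set 2. The peak count was not lower in mir-486 KO for every gene: Apoe had 9 in WT and 10 in mir-486 KO of set 1, Cd68 had 2 and 3 in set 2, and C1qa had 6 in each library of set 2. Coding sequence held more member peaks than any other region in each library, 64.8% of those of WT and 48.6% of those of mir-486 KO in set 1, and 64.7% and 71.7% in set 2.

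**Figure D1:**
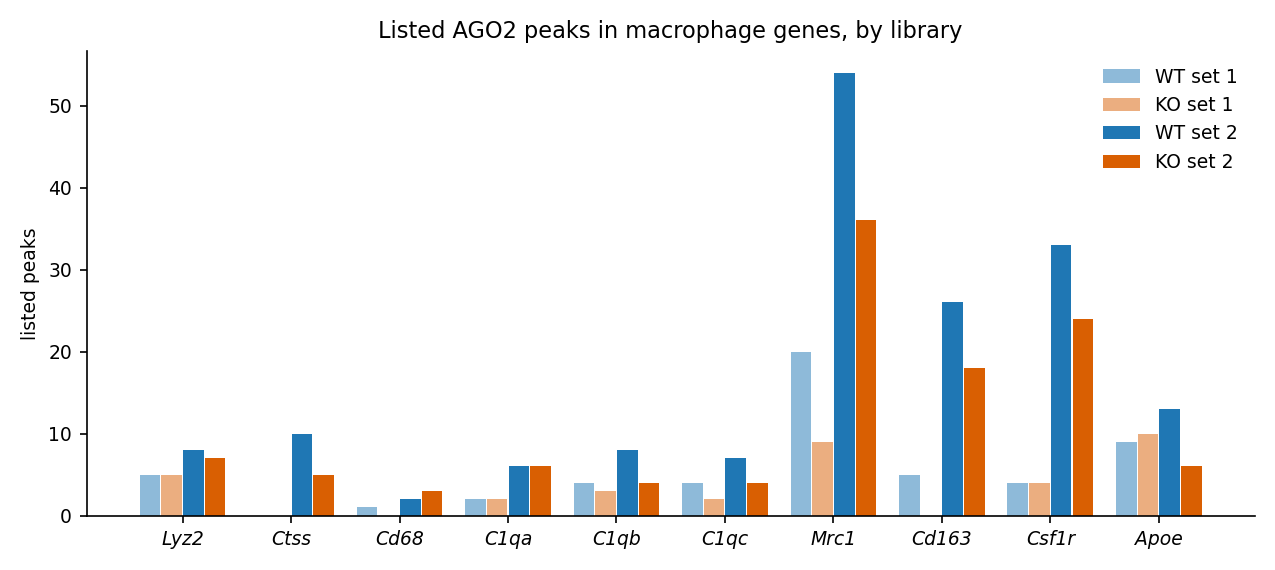
Listed AGO2 peaks in each macrophage gene (vertical axis, number of peaks), with 1 bar per library. Mrc1 has the highest bars of set 2, with 54 peaks in WT and 36 in mir-486 KO, and Ctss has peaks only in set 2.

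The depth behind these peaks was low. Read numbers were recovered from the deposited folds and p-values. A single pair of whole read numbers gave these values at 47 of 54 and 15 of 35 member peaks of WT and mir-486 KO in set 1, and at 158 of 167 and 68 of 113 in set 2, and reads are printed only for such peaks. Over them the median number of reads in the library whose peaks are listed was 5 in WT and 4 in mir-486 KO of set 1, and 12 and 7 in set 2. Adjoining peaks can share reads, so reads were not summed. The depth ratio of KO to WT that the deposited folds imply was 1.12 in set 1 and 1.09 in set 2.

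Few macrophage gene peaks were enriched over input, here a log2 fold and a -log10 p that both reached 3. The counts were 0 of 54 and 0 of 35 in WT and mir-486 KO of set 1, and 2 of 167 and 1 of 113 in set 2, against 3.57% and 0.848% of all listed peaks in set 1 and 1.42% and 1.23% in set 2. The median log2 fold over input was 0.46 in WT and 0.12 in mir-486 KO of set 1, and 0.61 and 0.43 in set 2. Over all listed peaks it was 0.68 and 0.38 in set 1, and 0.47 and 0.45 in set 2. Folds over input above 0 were found at 35 of 54 and 19 of 35 member peaks of WT and mir-486 KO in set 1, and at 124 of 167 and 69 of 113 in set 2, against 77.8% and 69.1% of all listed peaks in set 1 and 68.9% and 64.5% in set 2. The enriched peaks lay in Mrc1 and C1qc and are described with those genes.

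The immunoprecipitated libraries were then compared with each other at the same peaks. In the WT-over-KO lists 50 of 54 member peaks of set 1 and 155 of 167 of set 2 had a log2 fold above 0, which is 92.6% and 92.8%, against 80.4% and 67.1% of all listed peaks. All-peak values lie above 0 in both directions because each list uses the peaks of its first library. In the KO-over-WT lists 14 of 35 member peaks of set 1 and 15 of 113 of set 2 lay above 0, which is 40.0% and 13.3%, against 67.5% and 62.6% of all listed peaks.

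The median fold showed the same directions. WT over KO, it was 1.48 in set 1 and 1.10 in set 2, where the median of all listed peaks was 0.74 and 0.30. KO over WT, it was -0.16 in set 1 and -0.83 in set 2, where the median of all listed peaks was 0.72 and 0.27. In set 2 the median of each of the 10 genes was above 0 in WT over KO and below 0 in KO over WT, where 77.6% and 67.6% of all genes had a median above 0. In set 1 it was above 0 for 8 of 9 genes in WT over KO, where 91.3% of all genes were, and for 3 of 7 genes in KO over WT, where 70.3% were. The KO-over-WT median of set 1 changed sign without Apoe, to 0.033, and was 0.65 over the 15 peaks with a single read pair, of which 12 had more reads in mir-486 KO.

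A single member peak passed both thresholds in the direct lists, in Ctss in WT over KO of set 2. The counts were 0 of 54 and 0 of 35 in set 1, and 1 of 167 and 0 of 113 in set 2. Over all listed peaks 0.469% passed in WT over KO and 0.179% in KO over WT of set 1, and 0.0192% and 0.0144% in set 2.

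**Figure D2:**
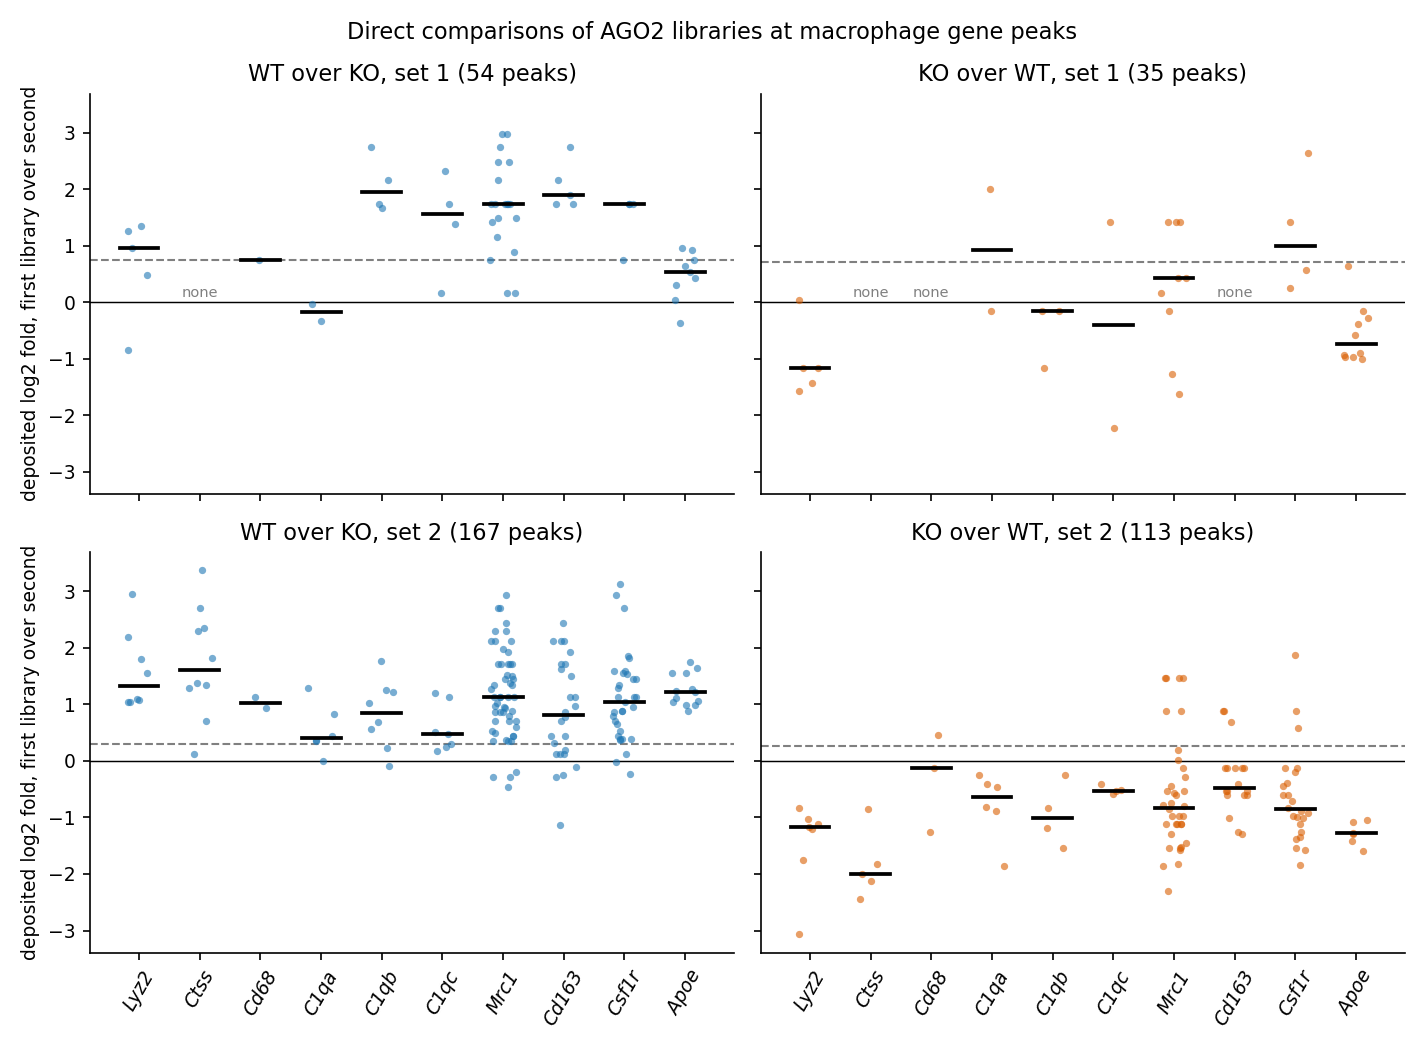
Deposited log2 folds (vertical axis, first library over second) of every macrophage gene peak in the 4 direct lists, by gene. Points are peaks, black bars are gene medians, and the dashed line is the median of all listed peaks. In set 2 the black bars of all 10 genes lie above 0 in WT over KO and below 0 in KO over WT.

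Lyz2 encodes lysozyme, which macrophages store in lysosomes and use against bacterial walls. The gene is on the minus strand at chr10:117277331-117282321 (GRCm38). Lyz2 had 5 listed peaks in each library of set 1, and 8 in WT and 7 in mir-486 KO of set 2. All 8 WT-over-KO folds of set 2 were above 0, from 1.04 to 2.95, and all 7 KO-over-WT folds were below 0, from -3.07 to -0.83. In set 1 the folds were above 0 at 4 of 5 WT peaks and at 1 of 5 mir-486 KO peaks. Of the genes with at least 5 listed peaks, 95.2% had a lower WT-over-KO median than Lyz2 in set 2 and 60.6% in set 1.

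The folds of Lyz2 differed along the gene in set 2. The 4 coding peaks of WT had folds of 1.04 to 1.10, and the 4 peaks of the 3′ UTR had 1.56 to 2.95. The largest, at chr10:117277578-117277797 in the 3′ UTR, had 248 reads in WT and 34 in mir-486 KO, with a -log10 p of 39.8. Its reads over input gave 0.76. The coding peak with most reads, at chr10:117280640-117280803, had 113 reads in WT and 57 in mir-486 KO. In mir-486 KO of set 2 the median KO-over-WT fold was -2.41 over the 3′ UTR peaks and -1.12 over the coding peaks. Set 1 did not repeat this: the median WT-over-KO fold was 0.06 over 2 peaks of the 3′ UTR, at 0.97 and -0.84, and 1.26 over 3 coding peaks. The near copy Lyz1, which lies beside Lyz2 from 117287797 to 117292868, could share reads with it. It had 1 listed peak, in WT of set 2, and 0 in the other libraries.

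**Figure D3:**
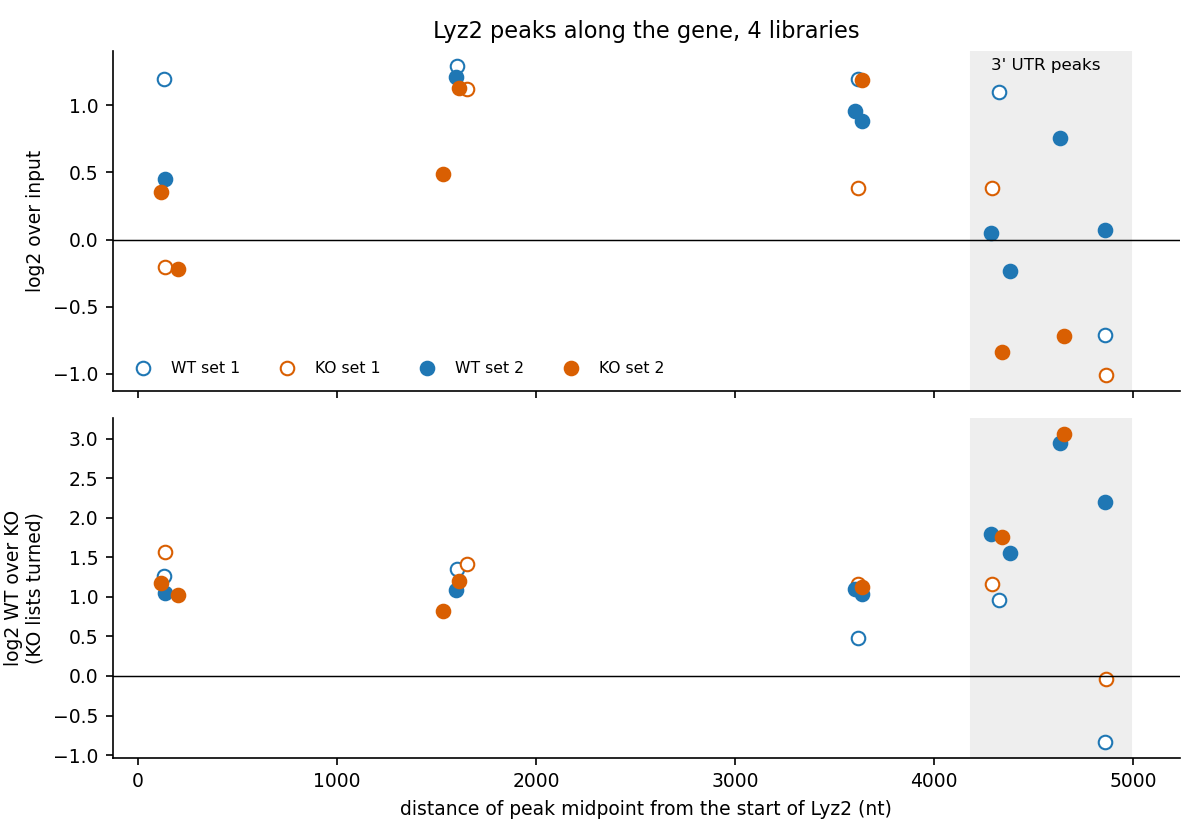
Log2 folds of Lyz2 peaks by distance of the peak midpoint from the start of the gene (nt), over input (upper panel) and as WT over KO with the sign of the KO lists turned (lower panel). Open points are set 1 and filled points set 2, and the shaded part holds the 3′ UTR peaks. In set 2 the 3′ UTR folds reach 2.95 in the WT list while the coding folds of that list stay between 1.04 and 1.10, and in set 1 the 3′ UTR folds of the WT list are 0.97 and -0.84.

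Ctss encodes cathepsin S, a lysosomal protease that trims the invariant chain of MHC class II. The gene is on the plus strand at chr3:95526786-95556403. It had 0 listed peaks in both libraries of set 1, and 10 in WT and 5 in mir-486 KO of set 2. All 10 WT-over-KO folds were above 0, from 0.12 to 3.37, with a median of 1.60, and all 5 KO-over-WT folds were below 0, from -2.44 to -0.86, with a median of -2.00. Of 9757 genes with at least 5 listed peaks, 96.8% had a lower WT-over-KO median, and of 9754 genes 0.0103% had a lower KO-over-WT median. The KO-over-WT rank rests on 5 shallow peaks of set 2, of which 1 had a single read pair, with 3 reads in mir-486 KO and 11 in WT.

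The Ctss peak past both thresholds lay in coding sequence at chr3:95545331-95545471, and its 141 bases are shown because it is the single direct call. It had 19 reads in WT and 1 in mir-486 KO, with a fold of 3.37 and a -log10 p of 4.12. Over input it had 8 input reads, a fold of 0.55 and a -log10 p of 0.35, and so it was not enriched. Capitals mark a word complementary to the seed of miR-22-3p.
Ctss coding peak: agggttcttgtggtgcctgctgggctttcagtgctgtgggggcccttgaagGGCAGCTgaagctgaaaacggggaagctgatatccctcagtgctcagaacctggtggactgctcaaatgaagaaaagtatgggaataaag

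Cd68 encodes a heavily glycosylated protein of the lysosome membrane, and its gene is on the minus strand at chr11:69664213-69666153. Its peaks were few and shallow. WT had 1 peak in set 1 with 3 reads, and 2 in set 2 with 14 and 4 reads. The mir-486 KO libraries had 0 peaks in set 1 and 3 in set 2. The WT-over-KO folds were 0.74 in set 1 and 0.93 and 1.12 in set 2, and the KO-over-WT folds of set 2 were -1.26, -0.12 and 0.46. The folds of Cd68 had -log10 p values of at most 0.69.

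C1qa, C1qb and C1qc encode the chains of C1q, the protein that starts the classical complement pathway, and lie side by side on chromosome 4 on the minus strand between 136880129 and 136898803. In WT over KO of set 2 their medians were 0.40, 0.85 and 0.48, and in KO over WT -0.64, -1.01 and -0.53. Among the genes with at least 5 listed peaks, 58.2% had a lower WT-over-KO median than C1qa, 64.5% than C1qc and 87.5% than C1qb. In KO over WT of set 2, by contrast, 1.37% had a lower median than C1qa.

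In set 1 the members of this complex did not move alike. All 4 WT peaks of C1qb and all 4 of C1qc had folds above 0, with medians of 1.95 and 1.56. Both WT peaks of C1qa had folds below 0, at -0.33 and -0.03, and in KO over WT 1 of its 2 peaks, in the 3′ UTR, had 9 reads in mir-486 KO and 1 in WT, with a fold of 2.01. In set 2 the C1qa 3′ UTR went the other way, with 54 reads in WT and 23 in mir-486 KO at chr4:136895949-136896137 and a fold of 1.29.

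The enriched peak of C1qc lay in coding sequence at chr4:136892379-136892545 in WT of set 2. It had 95 reads against 7 in its input, with a log2 fold of 3.04 and a -log10 p of 10.8. The overlapping peak of mir-486 KO in set 2 had 73 reads against 13 in its input and a fold of 1.62. The immunoprecipitated libraries differed less there, with 95 reads in WT and 73 in mir-486 KO, a fold of 0.48 and a -log10 p of 1.44. In set 1 WT had 21 reads against 1 in its input, and 6 reads in mir-486 KO. Its 167 bases are shown because it is the enriched coding peak. Capitals mark a pair of overlapping words complementary to the seed that miR-15a-5p and miR-16-5p share.
C1qc coding peak: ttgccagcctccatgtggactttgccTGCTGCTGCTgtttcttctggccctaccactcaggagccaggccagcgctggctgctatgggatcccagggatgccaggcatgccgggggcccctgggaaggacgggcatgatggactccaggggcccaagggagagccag

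Mrc1 encodes the mannose receptor CD206, which takes up glycoproteins and marks resident and repair macrophages. The gene is on the plus strand at chr2:14229392-14332057. All 20 WT peaks of set 1 and 50 of 54 of set 2 had a WT-over-KO fold above 0, with medians of 1.74 and 1.12. In KO over WT 6 of 9 peaks of set 1 and 8 of 36 of set 2 lay above 0, with medians of 0.43 and -0.83. Of the 6 set 1 peaks above 0 in mir-486 KO, 5 were intronic and had 3 reads each.

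The peak of the Mrc1 first exon, at the 5′ UTR, had the highest fold over input among member peaks. At chr2:14229429-14229571 in WT of set 2 it had 100 reads against 2 in the input, a fold of 4.53 and a -log10 p of 18.6. In mir-486 KO of set 2 it had 37 reads against 0, with a fold of 4.45, and both peaks were enriched. In set 1 it had 28 reads against 1 in WT, with a fold of 2.68, and 14 against 3 in mir-486 KO, with a fold of 0.61. Between the libraries it had 100 reads in WT and 37 in mir-486 KO of set 2, with a WT-over-KO fold of 1.52 and a -log10 p of 7.91, and 28 and 13 in set 1, with a fold of 1.16. The first exon was thus enriched over input in both genotypes of set 2, and WT had more reads there than mir-486 KO in both sets.

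An intron of Mrc1 held a site listed in all 4 libraries. At WT peaks it had 12 reads in WT and 4 in mir-486 KO of set 1, and 18 and 4 in set 2, with folds of 1.42 and 1.97. At the mir-486 KO peaks it had 4 reads in mir-486 KO and 10 in WT of set 1, and 4 and 17 in set 2, with KO-over-WT folds of -1.62 and -2.29. Over input the fold was 2.64 in WT of set 2, with 18 reads against 1. The 133 bases of the WT peak of set 2, chr2:14313783-14313915, are shown because this intronic site recurred in the sets. Capitals mark words complementary to the seeds of miR-22-3p, the first, and of miR-133b-3p, the second.
Mrc1 intron peak: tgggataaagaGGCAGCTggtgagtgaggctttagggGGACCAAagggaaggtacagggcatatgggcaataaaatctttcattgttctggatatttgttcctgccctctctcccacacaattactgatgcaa

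Another intron of Mrc1 holds Mir511, a microRNA gene on the same strand from 14261003 to 14261081. WT of set 2 had 2 adjoining peaks there, from 14261049 to 14261073, which span the mature miR-511-3p at chr2:14261051-14261072. Each had 4 reads in WT, 2 in its input and 1 in mir-486 KO. Their log2 fold over input was -0.11, so they were not above input. The other libraries had 0 peaks at Mir511. The mature sequence from RefSeq (GRCm38.p6) is shown with its seed in capitals because the peaks follow its limits.
miR-511-3p: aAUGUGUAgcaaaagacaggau

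Cd163 encodes the scavenger receptor for haemoglobin bound to haptoglobin, and its gene is on the plus strand at chr6:124304656-124330527. All 5 WT peaks of set 1 had folds above 0, with a median of 1.90, and mir-486 KO of set 1 had 0 listed peaks. In set 2, 22 of 26 WT peaks lay above 0, with a median of 0.82, and 3 of 18 mir-486 KO peaks did, with a median of -0.48. Its deepest WT peak in set 2, in coding sequence at chr6:124309164-124309268, had 21 reads in WT and 19 in mir-486 KO, a fold of 0.19. The lower values in mir-486 KO were thus not uniform along this gene.

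Csf1r encodes the receptor for colony-stimulating factor 1, on which macrophages depend for survival, and its gene is on the plus strand at chr18:61100598-61132149. In set 2, 31 of 33 WT peaks had a fold above 0, with a median of 1.04, and 3 of 24 mir-486 KO peaks did, with a median of -0.86. Set 1 pointed both ways: all 4 WT peaks had WT-over-KO folds above 0, from 0.74 to 1.74, and all 4 mir-486 KO peaks had KO-over-WT folds above 0, from 0.26 to 2.65. None of the set 1 peaks of Csf1r had more than 7 reads.

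Apoe encodes the apolipoprotein that carries lipids out of cells, and is made by macrophages and by many other cells. The gene is on the minus strand at chr7:19696109-19699188 and gave the most deeply covered member peaks. All 13 WT peaks of set 2 had folds above 0, from 0.89 to 1.74, with a median of 1.22, and all 6 mir-486 KO peaks had folds below 0, from -1.59 to -1.05. The deepest, at chr7:19696815-19697077 in coding sequence, had 312 reads in WT and 170 in mir-486 KO, with a fold of 0.99 and a -log10 p of 12.6. In set 1, 8 of 9 WT peaks had folds above 0, with a median of 0.54, and 1 of 10 mir-486 KO peaks did, with a median of -0.74. The set 1 median of 0.54 lay below the 0.74 of all listed peaks. Of the genes with at least 5 listed peaks, 26.4% had a lower WT-over-KO median than Apoe in set 1 and 94.7% in set 2. The deepest Apoe peak had 192 reads in its input and a fold over input of 0.17, so the AGO2 library held it at about the level of the input. Over all Apoe peaks the median log2 fold over input was -0.35 in WT and -1.78 in mir-486 KO of set 1, and 0.68 and -0.30 in set 2. The Apoe peaks of mir-486 KO thus lay below their own input at the median in both sets.

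**Figure D4:**
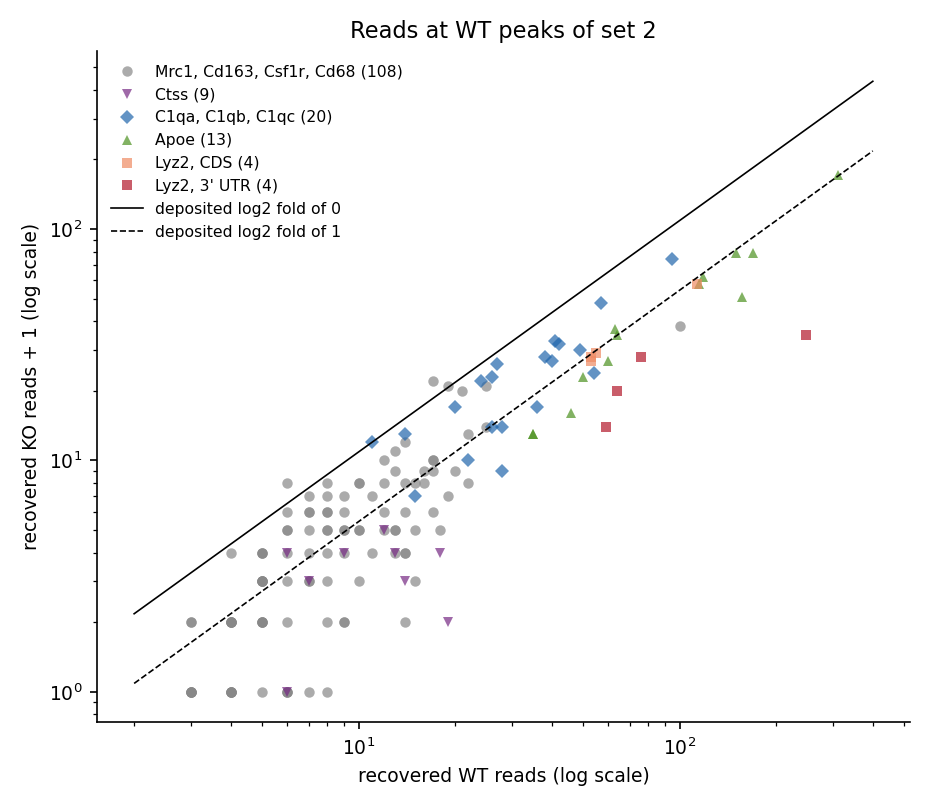
Reads recovered at the 158 WT peaks of set 2 with a single read pair, WT (horizontal axis) against mir-486 KO with 1 read added (vertical axis), both on log scales and coloured by gene. The solid and dashed lines are deposited log2 folds of 0 and 1. Lyz2 coding peaks and most Apoe peaks lie near the dashed line, the Lyz2 3′ UTR peaks lie below it, and most C1q peaks lie between the lines.

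Peaks that recur between the sets were then followed. Of the 54 WT member peaks of set 1, 48 overlapped a listed WT peak of set 2, and 38 of these, 79.2%, had folds above 0 in both sets, against 38.5% of all recurring WT peaks. Of the 35 mir-486 KO member peaks, 23 overlapped one of set 2, and 20, 87.0%, had folds below 0 in both, against 27.6% of all recurring mir-486 KO peaks. When overlapping member peaks of the 4 libraries were merged, they formed 177 sites, of which 92 were listed in a single library and 16 in all 4. At 11 of the 16 sites the folds of all 4 lists favoured WT, and at 0 they favoured mir-486 KO. When all listed peaks were merged in the same way, this held for 25.9% and 7.07% of 33884 sites found in the 4 libraries. The 11 lay in Lyz2 (4), Mrc1 (3), Apoe (2), C1qb (1) and C1qc (1). The direct lists of a set share both libraries, so the sites rest on 2 comparisons.

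Words complementary to microRNA seeds (positions 2 to 8) were sought in the member peaks, extended by 25 nt on each side, for 20 families with a mature sequence in the RefSeq table. miR-486-5p is not analysed here. In WT of set 2, 4 of 167 member peaks held the word of miR-1 and miR-206, which are muscle microRNAs, or 2.40%, against 3.32% of all listed peaks. In WT of set 1 it was in 3 of 54, or 5.56%, against 4.81%. The let-7 word was in 0 of 167 and 0 of 113 member peaks of set 2, against 1.65% and 1.46% of all. The word of miR-125 was in 8 of 167 and 6 of 113, or 4.79% and 5.31%, against 1.61% and 1.64%. In set 1 it was in 4 of 54 and 1 of 35, or 7.41% and 2.86%, against 1.55% and 1.37%. Of the 20 families, miR-125 had the largest excess in percentage points in both libraries of set 2. Some of its sites, as in C1qa and C1qc, recur between libraries, so these counts are not independent. In set 2 miR-15/16 (5.39% and 4.42%, against 3.37% and 3.35%) and miR-23 (2.99% and 4.42%, against 1.39% and 1.34%) also exceeded all peaks. For miR-223-3p, a microRNA of myeloid cells, the counts were 2 of 167 and 2 of 113, or 1.20% and 1.77%, against 0.661% and 0.652%.

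Words in UTR peaks of 4 macrophage genes are shown with up to 11 flanking bases on each side, the word in capitals. The Lyz2 window, chr10:117278035-117278063, was within or beside listed peaks of all 4 libraries and holds ACATTCC, the complement of the miR-206 seed. At that site WT had 14 reads and mir-486 KO 7 in set 1, and 64 and 19 in set 2. The C1qa window, chr4:136895938-136895966, holds GCACTTT, the complement of the seed of miR-17-5p and its relatives, and belongs to the WT peak of set 2 with 54 and 23 reads. The Cd163 window, chr6:124329712-124329740, and the Mrc1 window, chr2:14331874-14331902, hold AATGTGA, the complement of the miR-23a-3p seed. The Mrc1 3′ UTR showed little difference: the WT peak of set 1 had 6 reads in WT and 5 in mir-486 KO, and the mir-486 KO peak of set 2 had 8 in each. The Mrc1 first exon holds GGCAGCT, the complement of the miR-22-3p seed, before the start of its mir-486 KO peaks in both sets. The WT peaks of this exon start further along, so their 25-nt extension did not hold the whole word.
Lyz2 3′ UTR: tgagagaggtcACATTCCctcgatttccc
C1qa 3′ UTR: ggtttctttaaGCACTTTctggaataaac
Cd163 3′ UTR: ccatatttgtgAATGTGAccacttaatag
Mrc1 3′ UTR: attatctaattAATGTGAtgaattaatgt
Mrc1 first exon: tttcagtcaGGCAGCTcccagaccttg

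The mature sequences that these words pair with are given next, from RefSeq, each with its seed in capitals. miR-206-3p has the seed of miR-1, and miR-16-5p that of miR-15a-5p. A match of 7 bases describes the sequence and does not show that the microRNA was bound there.
miR-206-3p: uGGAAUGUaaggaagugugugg
miR-17-5p: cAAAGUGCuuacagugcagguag
miR-23a-3p: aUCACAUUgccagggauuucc
miR-22-3p: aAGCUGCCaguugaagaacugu
miR-16-5p: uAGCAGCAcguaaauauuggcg
miR-133b-3p: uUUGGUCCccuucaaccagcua

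The other genes of macrophages and lysosomes were a list of 30. In both sets they differed less than the 10 members in share and in WT-over-KO median. Their share of listed peaks had a log2 ratio of KO to WT of -0.46 in set 1 and -0.45 in set 2. Their median fold WT over KO was 1.16 in set 1 and 0.54 in set 2, and KO over WT -0.06 and -0.16. In set 2, 27 of 27 genes with a peak had a median above 0 in WT over KO, against 77.6% of all genes. In KO over WT of set 2, 18 of 24 had a median at or below 0, where 67.6% of all genes were above 0. Set 1 differed in KO over WT, where 12 of 18 genes had a median above 0, against 70.3% of all genes. In WT over KO of set 1, 19 of 19 did, against 91.3%.

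Apart from Cx3cr1, the 5 genes with most listed peaks in this list are lysosomal genes that most other cells also use. Psap, the precursor of the saposins that help to degrade sphingolipids, had medians in set 2 of 0.06 WT over KO and -0.12 KO over WT. Ctsd, the aspartic protease cathepsin D, had 0.01 and -0.07, and Ctsb, the cysteine protease cathepsin B, 0.38 and -0.29. Lgmn, the protease legumain, had 0.47 and -0.84. In set 1 these genes differed more: Psap had 0.85 WT over KO and -0.85 KO over WT, Ctsd 1.34 and -1.41, Lgmn 0.95 and -0.87, and Ctsb 0.74 and 0.26. The closeness of Psap and Ctsd to 0 was thus seen in set 2 and not in set 1. Cx3cr1, the fractalkine receptor, had 105 peaks over the 4 libraries, but 103 of them overlapped other genes on the same strand, 46 of them the muscle gene Xirp1, and Ctsd shared 53 of its 79 peaks with the gene model Gm49369. Without Cx3cr1 the log2 ratio of the list's share was -0.52 in set 1 and -0.50 in set 2. Lgals3, which encodes galectin-3 of activated macrophages, had the single direct call of the list, a coding peak at chr14:47380306-47380417 with a WT-over-KO fold of 3.55 and a -log10 p of 4.70 in set 1.

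Lists for other cells of muscle were measured in the same way, and some had a lower share in mir-486 KO as the macrophage genes did. All 8 fibroblast genes had listed peaks in each library, with a log2 share ratio of -0.46 in set 1 and -0.23 in set 2, and medians in set 2 of 0.69 WT over KO and -0.62 KO over WT. In set 1 the fibroblast medians were 0.16 and -0.06, with 57.7% of the WT peaks above 0, fewer than the 80.4% of all listed peaks. The 6 red blood cell genes had ratios of -1.27 and -0.45, and medians in set 2 of 1.36 and -1.37. Their set 1 medians were 1.44 WT over KO and -1.31 KO over WT, where the macrophage genes had 1.48 and -0.16. In WT over KO of set 2, gene medians lay above 0 for 8 of 8 fibroblast and 6 of 6 red blood cell genes. In KO over WT of set 2 they did for 0 of 8 and 1 of 6. The macrophage genes thus shared this direction with these lists. The 8 B cell genes had 2 and 4 peaks in WT and mir-486 KO of set 1 and 24 and 1 in set 2, and the 10 neutrophil genes had 2 and 0, then 5 and 0. In T cell genes there were 1 and 4 peaks in set 1 and 7 and 5 in set 2. The part of these cells, or of blood in the muscle, in the macrophage values was not tested.

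Endothelial, adipocyte and myofibre genes did not show this pattern in set 2. The 8 endothelial genes had share ratios of 0.22 in set 1 and 0.03 in set 2, and medians in set 2 of 0.12 WT over KO and 0.32 KO over WT. The 6 adipocyte genes had ratios of -0.30 and 0.13 and medians in set 2 of 0.32 and 0.18. The 8 myofibre genes had ratios of -0.13 and -0.06 and medians in set 2 of 0.03 and -0.04. In set 1 the medians were 0.65 WT over KO and -0.48 KO over WT for myofibre genes, 0.57 and 0.98 for endothelial genes and 0.69 and 1.33 for adipocyte genes, beside 0.74 and 0.72 for all listed peaks. Myofibre gene medians of set 1 were above 0 for 8 of 8 genes in WT over KO, against 91.3% of all genes. In KO over WT they were for 0 of 8, against 70.3%. The myofibre genes thus leaned to WT in set 1, with a KO-over-WT median below the -0.16 of the macrophage genes. Endothelial and adipocyte medians were above 0 in both directions there.

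**Figure D5:**
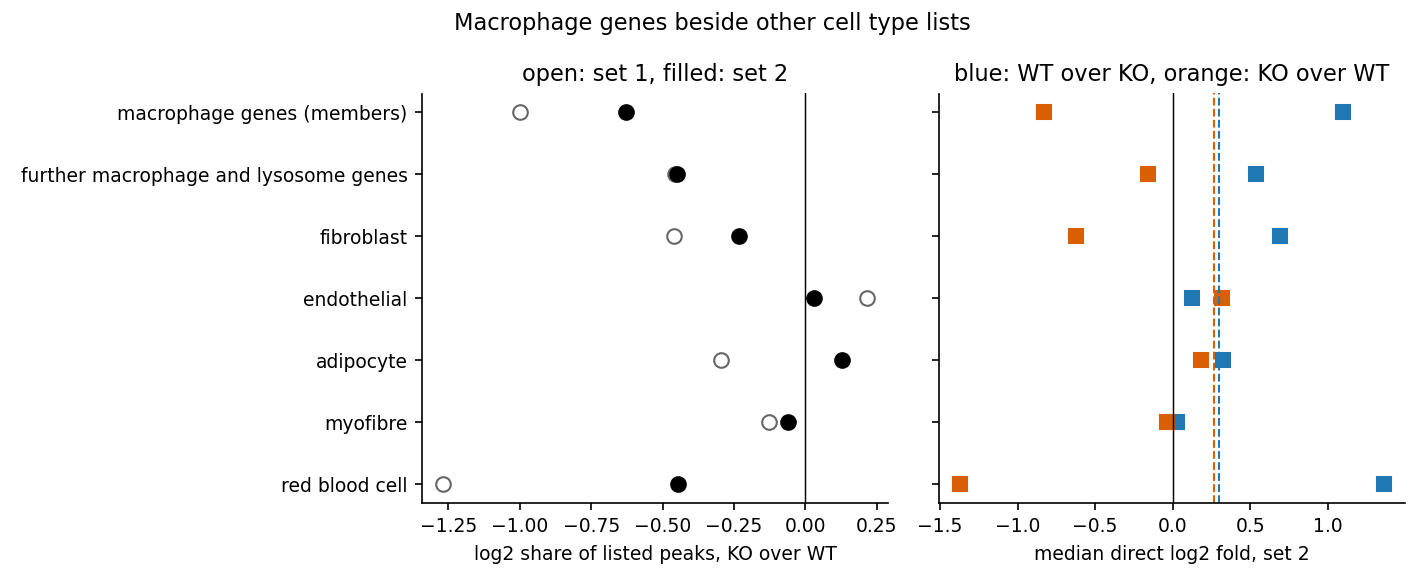
Macrophage genes beside other cell type lists: the log2 ratio of KO to WT in the share of listed peaks (left, open points set 1 and filled points set 2), and the median direct log2 fold in set 2 (right, squares, with dashed lines at the medians of all listed peaks). The B, T and neutrophil lists are left out for their few peaks. Both macrophage lists and the fibroblast and red blood cell lists lie below 0 on the left in both sets. Myofibre genes lie at -0.13 and -0.06 there, and endothelial genes at 0.22 and 0.03.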

How the data were processed

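The authors trimmed adapters, mapped the reads with STAR and called peaks separately for every immunoprecipitated library, then compared read numbers under a peak between 2 libraries. Replicates were not pooled. For each peak the authors deposited a log2 fold between the libraries, scaled by depth, and the -log10 p of that difference, which is 0 wherever the fold is below 0. The p-values compare the reads of 2 libraries, not genotypes. There are 4 lists of library over input and 4 direct lists. Further libraries of the series are not analysed here. Coordinates are GRCm38, 1-based, with genes from GENCODE M21, an earlier release than the labels name.

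The 10 genes, the other lists and the thresholds were chosen with earlier results of these data known. All 10 members, the 5 further macrophage genes with most listed peaks and any with a direct call are named. Regions were read at peak midpoints, with CDS before UTR before intron. Whole reads were recovered, after the values were seen, from fold = log2(reads / (reads of the second library + 1)) plus a constant per list. Of 400 sampled peaks per list with folds above 0, between 97.25% and 99.75% matched fold and p (tolerances 1e-06 and 0.005), against 0% with the constant moved. The 1 added read matched 118 of 118 and 327 of 327 peaks with identical coordinates in both direct lists. Genes without listed reads and the absolute depth of libraries remain unknown. The functions were tested on simulated data. Alternatives were other thresholds, overlaps, merged peaks, covered length, gene lists and each set alone. Tools were Python 3.11.15, pandas 2.3.3, SciPy 1.17.1 and pysam 0.24.0.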

Additional observations from a re-analysis of the deposited data

How the results depend on the processing

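The mean log2 ratio of shares, -0.81, stayed between -0.91 (without Apoe) and -0.69 (without Mrc1) where both sets were used, and was -1.00 with set 1 alone and -0.63 with set 2 alone. The 3 enriched peaks became 10 with a log2 fold threshold of 1. The single direct call became 18 with a log2 fold threshold of 1, and 0 with a log2 fold threshold of 4 or a -log10 p threshold of 5. The set 2 medians kept their sign, from 1.03 to 1.23 WT over KO and from -0.93 to -0.38 KO over WT, leaving out each gene included. The WT-over-KO median of set 1, 1.48, was 1.16 for peaks overlapping exons. Settings chosen after seeing the data gave 1.11 without Mrc1, 2.03 over peaks with a single read pair and 1 read added to both libraries, and 0.97 over peaks with at least 10 reads. The KO-over-WT median of set 1, -0.16, became 0.033 without Apoe. It became 0.65 over peaks with a single read pair, 0.84 when 1 read was also added to both libraries, and -1.26 with at least 10 reads, which leaves 1 peak; these settings were also chosen after seeing the data. In that list no peak had a -log10 p of at least 1 over input, so that alternative gave no value. The direction of KO over WT in set 1 thus differed between settings. Peaks with folds below 0 have a deposited p of 0 and more often lack a single read pair, so the settings with such pairs leave them out. Of 62 values under alternatives, 50 kept their direction and moved by less than the spread between the sets or, for counts, 1.5 times. The share ratio of each set alone could not move by more than this spread, being set against the mean of the same 2 sets. Requiring at least 50% of the peak within the gene left every value unchanged. This count therefore includes values that could not or did not change. No paired analysis was possible because no result comes from a test that a block could enter. The share ratios and the direct lists are themselves taken within a set.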
